A study of Homo sapiens with 6 samples.

Results

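The genes described here encode 9 enzymes that supply or clear deoxynucleotides, the building blocks of DNA. *RRM1*, *RRM2*, *TYMS*, *TK1*, *DUT*, *DCTPP1*, *DTYMK*, *DCK* and *SAMHD1* were taken by symbol from a count table that lists 60480 genes. The choice was made with earlier results of these data known. All 9 were among the 19778 genes that passed the filter on low counts. Poly(A) RNA was sequenced from OE-19, an established human line of adenocarcinoma of the esophagogastric junction (AEG). There were 3 control libraries and 3 libraries from cells in which IGF2BP3 was knocked down with shRNA (IGF2BP3 KD). IGF2BP3 is an RNA-binding protein described as a reader of m6A. The control libraries are titled shControl and their count columns are labelled Puro, and the labels do not describe the control vector. The sources used here do not say how many hairpins were used or whether the libraries of a group came from separate cultures, so the p-values measure only the spread between these libraries.

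Ribonucleotide reductase turns ribonucleotides into deoxynucleotides and joins a large catalytic subunit, RRM1, with a small subunit, RRM2, which is made mainly when DNA is copied. Thymidine nucleotides have routes of their own, since dUTP must be cleared by DUT, dUMP methylated by TYMS and dTMP phosphorylated by DTYMK, while TK1 and DCK recover nucleosides by phosphorylation. DCTPP1 and SAMHD1 break deoxynucleotides down. Because DNA synthesis is confined to S phase, many of these genes peak there, and in bulk RNA fewer cells in S phase and less RNA per cell cannot be told apart.

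The target of the knockdown, *IGF2BP3*, was counted 7416, 7363 and 6532 times in the control libraries, against 777, 792 and 794 times after knockdown. Values per library are always given in the order of replicates 1, 2 and 3. Total counts per library ranged from 53424071 to 69989087. The members had between 1429 and 27894 counts in each library. All 5 epithelial markers examined (*EPCAM*, *CDH1*, *KRT8*, *KRT18* and *KRT19*) had counts in every library. Their summed level was 5634 to 5721 CPM in control and 5626 to 5771 CPM in IGF2BP3 KD cells. CPM are counts scaled to library size with TMM factors, except in the sums of markers, which used total counts without these factors. Of 7 markers of immune, stromal and endothelial cells, *CD68* and *COL1A1* had counts in every library and were higher after knockdown, by 0.54 and 0.50 on the log2 scale. The summed level of the 7, also without TMM factors, was 53.6 to 60.5 CPM in control and 83.1 to 83.8 CPM in IGF2BP3 KD cells. *CD3E* and *COL1A2* were at 0 throughout, and *PTPRC*, *PECAM1* and *VWF* had at most 8, 5 and 28 counts in any library. Only *CD68* and *COL1A1* passed the filter on low counts. Whether the 7 markers play a part in the results was not tested.

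Short stretches of the members' promoters are shown because many S-phase genes carry binding words for E2F factors or CCAAT boxes, the word bound by NF-Y. RefSeq gives 14 start sites for the 9 genes on GRCh38.p14, and a window from 250 bases before to 50 bases after each start was searched on both strands for the E2F words TTTCCCGC, TTTCGCGC, TTTGCCGC and TTTGGCGC and for CCAAT. No CCAAT can lie within an E2F word or its reverse complement. An E2F word was found in 3 of the 14 windows, those of *TYMS*, *DUT* and *DCK*, against 3.3% of all 35116 windows of this length. CCAAT was found in 6 windows, which belong to *RRM1*, *RRM2*, *TK1*, *DTYMK* and *SAMHD1*, against 34.6% of all windows. These are matches of letters, not shown sites of binding. The stretches are printed along the gene's own strand with the word, or its reverse complement, in capitals:
RRM2 CCAAT, first base 93 before the start, chr2:10122635-10122661, plus strand: gcatggcacagCCAATgggaagggccg
RRM2 CCAAT, first base 66 before the start, chr2:10122662-10122688, plus strand: gggcaccaaagCCAATgggaagggccg
TK1 CCAAT, first base 46 before the start, chr17:78187083-78187109, minus strand: gccggctcgtgATTGGccagcacgccg
DUT E2F word, first base 42 before the start, chr15:48332144-48332173, plus strand: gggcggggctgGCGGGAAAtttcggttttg
TYMS E2F word, first base 39 before the start, chr18:657603-657632, plus strand: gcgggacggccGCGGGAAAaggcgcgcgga
DCK E2F word, first base 22 after the start, chr4:70993659-70993688, plus strand: gctgcctccgcGCGCCAAAgtcaaaccccg

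With edgeR's quasi-likelihood test, adjusted by Benjamini-Hochberg over all genes tested, 6 of the 9 members fell in IGF2BP3 KD cells at an adjusted p under 0.05 and 0 rose. Of all genes tested, 20.4% were called, 10.6% lower and 9.87% higher. All genes tested include many at low levels, and 14289 of the 19778 had a mean CPM of at least 1. No share, of calls or of values without overlap, was computed for genes at levels like those of the members. Because the members and the lists followed below were chosen with earlier results known, their shares beside those of all genes are only a description. At an unadjusted p under 0.05, 7 members were lower and 0 were higher, and DESeq2 also called 6 lower and 0 higher. The lower genes were *RRM2*, *DCTPP1*, *RRM1*, *TK1*, *DUT* and *DTYMK*, and their falls were modest, with log2 fold changes from -0.43 to -0.14. *TYMS*, *DCK* and *SAMHD1* were not called. The median log2 fold change was -0.16 over the 9 members and 0.01 over all genes tested. Values of the 2 groups did not overlap for 7 members, all lower, while 35.8% of all genes tested did not overlap, 17.8% lower and 18.0% higher. Without 1 library at a time, 3 to 5 members were called lower, and the calls for *RRM2*, *RRM1* and *DCTPP1* were made in all 6 of these fits.

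**Figure D1:**
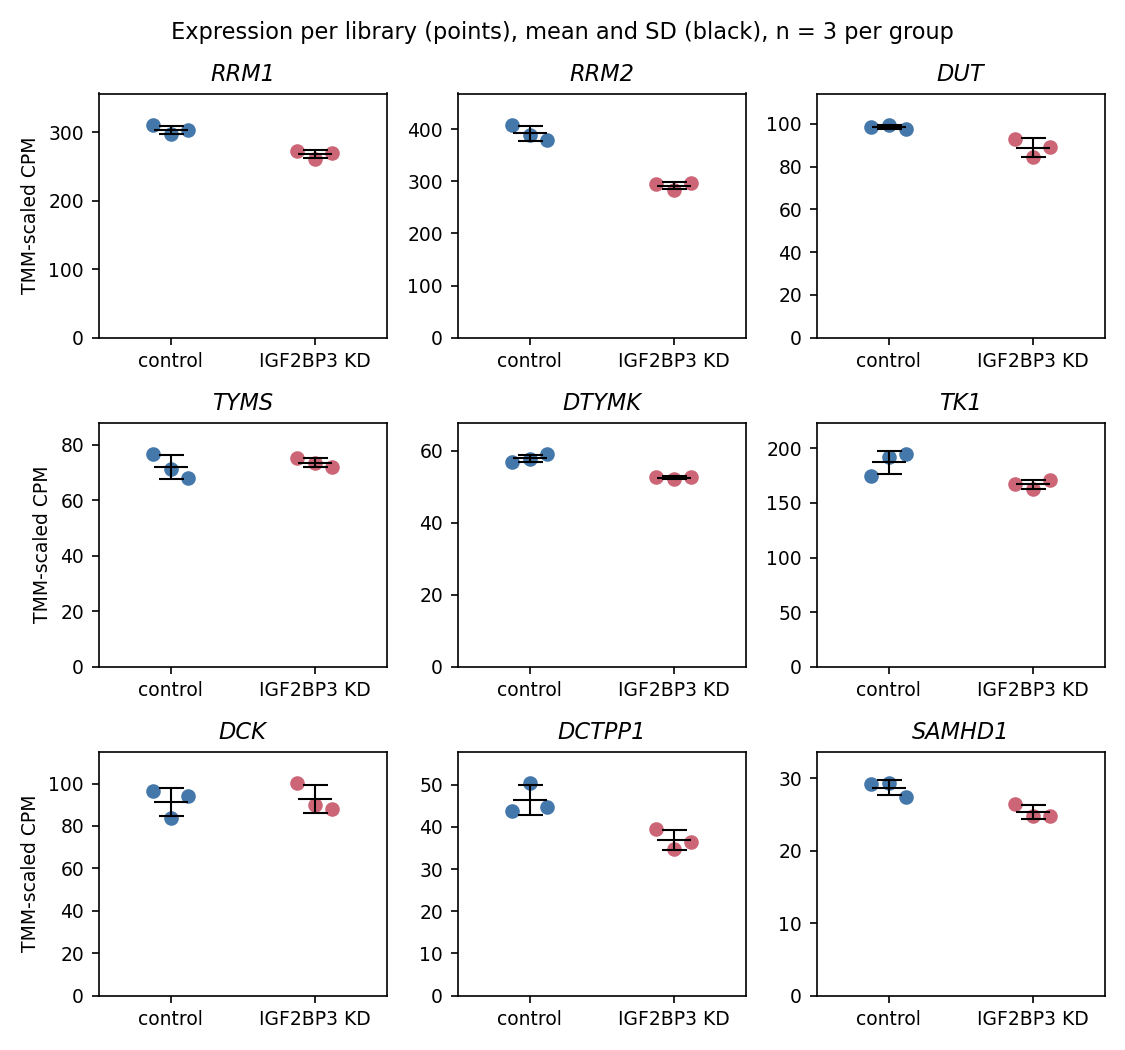
TMM-scaled CPM of the 9 genes in each control and IGF2BP3 KD library (points), with the mean and SD of 3 libraries in black and axes that start at 0. The IGF2BP3 KD points lie below all control points in 7 panels, while those of TYMS and DCK overlap the control points.

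*RRM2* (ENSG00000171848, chromosome 2 of hg38, 10120698 to 10211725) encodes the small subunit of the reductase, which carries the tyrosyl radical. Its counts were 27894, 27122 and 22241 in control and 15919, 17625 and 18651 in IGF2BP3 KD libraries. Scaled to library size this was 407, 389 and 379.7 CPM in control and 295, 284 and 296 CPM in IGF2BP3 KD cells. The lowest control library was thus well above the highest IGF2BP3 KD library. The level went from 392 ± 14.0 to 292 ± 6.68 CPM (SD, n = 3) and fell by 25.6%, a log2 fold change of -0.43 (SE 0.03, edgeR adjusted p = 4.96e-06). This was the largest fall of the 9 genes, and 9.87% of all genes tested had a lower log2 fold change. With each library left out in turn, its log2 fold change lay between -0.45 and -0.40.

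*RRM1* (ENSG00000167325, chromosome 11, 4094707 to 4138932), the large subunit with the catalytic and regulatory sites, was at 309.9, 297 and 303 CPM in control libraries. In IGF2BP3 KD libraries it was at 273, 261 and 269 CPM, all below the control values. The fall was smaller than that of *RRM2*, 11.7%, with a log2 fold change of -0.18 (SE 0.03, edgeR adjusted p = 0.00118). *RRM1* shares 63 exonic bases with the antisense gene *RRM1-AS1*, which had at most 5 counts in any library.

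*RRM2B*, an alternative small subunit induced by p53 and used outside S phase, is no member and was compared as the partner of *RRM1* in resting cells. It was at 47.8, 46.4 and 45.1 CPM in control and at 39.3, 40.9 and 40.0 CPM in IGF2BP3 KD libraries. Its log2 fold change was -0.21 (SE 0.05, edgeR adjusted p = 0.0120), so both small subunits were lower, although the call for *RRM2B* was lost without IGF2BP3 KD replicate 1 (edgeR adjusted p = 0.0511). The ratio of *RRM2* to *RRM1*, each per kb of its MANE transcript, was 1.27, 1.26 and 1.21 in control and 1.04, 1.05 and 1.06 in IGF2BP3 KD libraries. The log2 ratio went from 0.32 ± 0.04 to 0.07 ± 0.01 (SD, n = 3), a difference of -0.25 that lay between -0.27 and -0.24 without 1 library at a time. The ratio of *RRM2* to *RRM2B* was 12.5, 12.3 and 12.3 in control and 11.0, 10.2 and 10.8 in IGF2BP3 KD libraries, a difference of -0.21 on the log2 scale. Neither ratio overlapped between the groups, and for both the two-sided exact permutation p was 0.1, the smallest that 3 against 3 libraries allow (0.133 after Benjamini-Hochberg adjustment over 4 ratios).

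**Figure D2:**
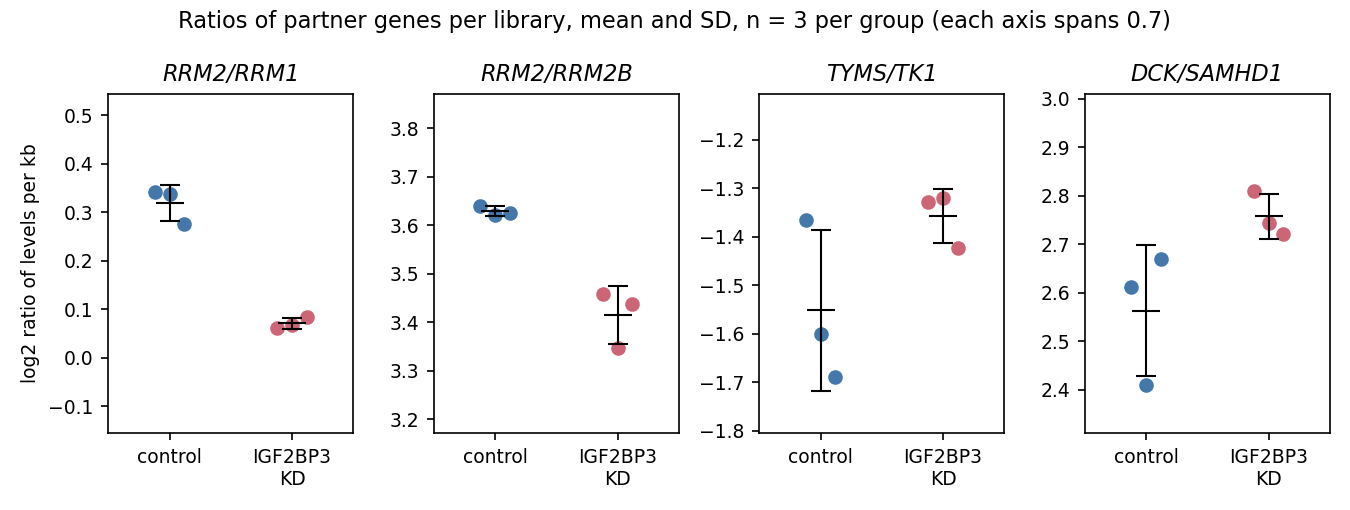
Log2 ratios of levels per kb of transcript for RRM2/RRM1, RRM2/RRM2B, TYMS/TK1 and DCK/SAMHD1 in each library (points), with the mean and SD of 3 libraries in black; each axis spans the same range and does not start at 0. The 2 ratios with RRM2 are lower in every IGF2BP3 KD library, DCK/SAMHD1 is higher in each, and TYMS/TK1 overlaps.

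On the thymidylate route, the enzymes before and after TYMS fell slightly, and *TYMS* itself did not pass the test. *DUT* (ENSG00000128951, chromosome 15, 48331011 to 48343373), which splits dUTP and so keeps uracil out of DNA while making dUMP, was at 98.5, 99.3 and 97.8 CPM in control libraries. In IGF2BP3 KD libraries it was at 92.9, 84.2 and 89.2 CPM, a wider spread but below each control value. It fell by 9.87%, a log2 fold change of -0.15 (SE 0.04, edgeR adjusted p = 0.0297). The call was lost without control replicate 2 or 3 and without IGF2BP3 KD replicate 2 or 3, with log2 fold changes from -0.19 to -0.11 over all 6 omissions. *DUT* shares 533 exonic bases, 14.5% of its exons, with an antisense gene of low level (2.41 ± 0.351 CPM in control and 2.27 ± 0.727 CPM in IGF2BP3 KD cells, SD, n = 3).

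*TYMS* (ENSG00000176890, chromosome 18, 657653 to 673578), the methylase that makes dTMP from dUMP and the target of fluorouracil, was at 76.6, 71.3 and 68.1 CPM in control libraries. The IGF2BP3 KD values, 75.1, 73.5 and 71.9 CPM, lay within the control range. Its log2 fold change was 0.03 (SE 0.05, 95% interval -0.08 to 0.14, edgeR adjusted p = 0.752), so a fall as large as that of *RRM2* lies outside the interval. Of its exonic bases, 39.9% are shared with *ENOSF1* on the opposite strand, and *ENOSF1* had a log2 fold change of 0.06 (edgeR adjusted p = 0.396). The sources used here do not state the strand setting of the counting, so the counts of *TYMS* are uncertain to that extent.

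*DTYMK* (ENSG00000168393, chromosome 2, 241675747 to 241686944), the kinase that turns dTMP into dTDP, was at 57.0, 57.8 and 59.0 CPM in control libraries. It was at 52.8, 52.2 and 52.7 CPM in IGF2BP3 KD libraries, a small shift with little spread in either group. It fell by 9.29%, a log2 fold change of -0.14 (SE 0.04, edgeR adjusted p = 0.0461). This call stood close to the threshold and was lost in each of the 6 fits that left out 1 library, with log2 fold changes from -0.16 to -0.13.

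In the salvage route, *TK1* fell and *DCK* did not pass the test. *TK1* (ENSG00000167900, chromosome 17, 78174091 to 78187233), the cytosolic thymidine kinase of dividing cells, was at 175, 192 and 195 CPM in control libraries. It was at 167, 163 and 171 CPM in IGF2BP3 KD libraries, so control replicate 1 stood close to the IGF2BP3 KD values. It fell by 10.7%, a log2 fold change of -0.16 (SE 0.04, edgeR adjusted p = 0.0171). The call was lost without control replicate 2 or 3 and without IGF2BP3 KD replicate 1 or 2, with log2 fold changes from -0.21 to -0.14 over all 6 omissions. No exon of *TK1* overlaps another gene in GENCODE v44.

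*DCK* (ENSG00000156136, chromosome 4, 70992538 to 71030914), the deoxycytidine kinase that also activates gemcitabine and cytarabine, was at 96.3, 84.0 and 94.2 CPM in control libraries. The IGF2BP3 KD libraries, at 100.1, 89.7 and 88.2 CPM, overlapped this range. The log2 fold change was 0.02 (SE 0.06, 95% interval -0.12 to 0.15, edgeR adjusted p = 0.889), and its sign turned, with a value of -0.04, when control replicate 2 or IGF2BP3 KD replicate 1 was omitted. *DCK* shares 199 exonic bases, 6.4% of its exons, with *MOB1B* on the same strand. *MOB1B* had a log2 fold change of -0.53 (edgeR adjusted p = 8.28e-04), and its part in the counts of *DCK* was not tested.

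*DCK* was the only one of the 9 genes with the word GATTACT in the 3′ UTR of its MANE transcript, a word held by 7.8% of 13428 tested genes with a 3′ UTR of at least 50 bases. The word was searched because earlier results of these data had drawn attention to it, and its relation to levels was not tested here. The site lies at base 642 of the 3′ UTR, with the word in capitals:
DCK 3′ UTR: caaacactgtGATTACTctttgctttg
The word ACACATC was found in none of the 9 3′ UTRs and in 9.7% of the same genes. UGGAC, written TGGAC in DNA, is a motif given in the study for IGF2BP3 binding. It was found once each in *RRM1*, *TK1*, *DTYMK*, *DCK* and *SAMHD1*, and in 62.1% of the same genes.

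The log2 ratio of *TYMS* to *TK1*, the last enzymes of the new and the salvage route to dTMP, was -1.55 ± 0.17 in control and -1.36 ± 0.06 in IGF2BP3 KD cells (SD, n = 3). Control replicate 1, at -1.37, lay among the IGF2BP3 KD values, and the difference of 0.19 had a two-sided exact permutation p of 0.2. It was 0.13 when control replicate 3 was omitted and 0.29 when control replicate 1 was omitted, the ends of its range over the 6 omissions. With 3 against 3 libraries this test cannot go below 0.1, so it cannot decide whether *TYMS* and *TK1* differed in their response.

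Among the genes that clear nucleotides, *DCTPP1* (ENSG00000179958, chromosome 16, 30423615 to 30430030), a pyrophosphatase that degrades dCTP and its modified forms, showed the second largest fall of the 9. It was at 43.8, 50.3 and 44.8 CPM in control libraries. The IGF2BP3 KD libraries were at 39.6, 34.9 and 36.3 CPM, all lower, with control replicate 2 standing above the rest. It fell by 20.3%, a log2 fold change of -0.33 (SE 0.07, edgeR adjusted p = 0.00621), or -0.27 without control replicate 2. Of its exonic bases, 41.2% are shared with *ZNF771* on the opposite strand, which was at 9.50 ± 2.88 CPM in control and 8.94 ± 4.92 CPM in IGF2BP3 KD cells (SD, n = 3). Since the strand setting of the counting is not stated, the counts of *DCTPP1* are uncertain to that extent.

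*SAMHD1* (ENSG00000101347, chromosome 20, 36890229 to 36951893), a hydrolase that splits all deoxynucleotide triphosphates and restricts retroviruses in resting cells, was the least abundant member. It was at 29.2, 29.3 and 27.5 CPM in control and at 26.5, 24.9 and 24.8 CPM in IGF2BP3 KD libraries, with no overlap. Its log2 fold change was -0.18 (SE 0.06, 95% interval -0.31 to -0.04 before adjustment), but the adjusted p was 0.0655 in the same edgeR test and between 0.0555 and 0.18 in the alternatives. The estimate was as large as that of *RRM1*, with a larger SE of 0.06 against 0.03. *TLDC2*, which shares 9.9% of the exonic bases of *SAMHD1* on the opposite strand, was higher at a log2 fold change of 0.56 (edgeR adjusted p = 0.0303), a call made in 2 of the 6 fits that left out 1 library. The ratio of *DCK* to *SAMHD1* per kb was 6.11, 5.32 and 6.36 in control and 7.01, 6.70 and 6.59 in IGF2BP3 KD libraries, a log2 difference of 0.19 (two-sided exact permutation p = 0.1, 0.133 after adjustment over 4 ratios). Without 1 library at a time this difference lay between 0.12, when control replicate 2 was omitted, and 0.25.

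**Figure D3:**
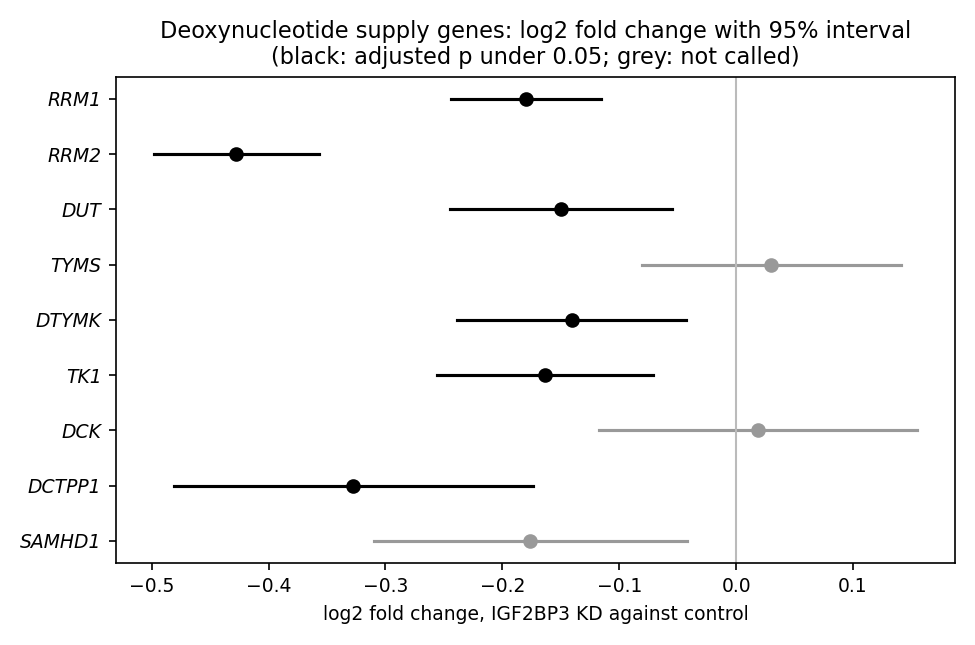
Log2 fold change of each gene in IGF2BP3 KD against control cells with its 95% interval before adjustment for multiple tests, in black for an adjusted p under 0.05 and in grey otherwise. RRM2 and DCTPP1 lie furthest from 0, at -0.43 and -0.33, and the intervals of TYMS and DCK include 0.

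Levels were compared between genes as CPM per kb of the MANE transcript. In control cells *TK1* (131 ± 7.36) and *RRM2* (120.4 ± 4.29, SD, n = 3) were highest and their ranges overlapped, followed by *RRM1* (96.5 ± 2.08) and *DTYMK* (55.1 ± 0.969). *DUT*, *TYMS*, *DCTPP1* and *DCK* came next, from 46.0 to 36.5 CPM per kb, and each overlapped its neighbour in this order. *SAMHD1* was lowest, at 6.17 ± 0.223 CPM per kb. In IGF2BP3 KD cells the range of *RRM2* (89.5 ± 2.05) no longer overlapped that of *TK1* (117 ± 2.76), and *TYMS* stood before *DUT* and *DCK* before *DCTPP1*. This order rests on the transcript length, and with the length of all annotated exons, chosen after the data were seen, only *TK1* (first) and *SAMHD1* (last) kept their places in control cells. Per kb of all exons, *RRM2* was at 42.8 against 71.6 for *RRM1*, below and no longer above it. *DTYMK* went from rank 4 to rank 8, at 24.2 CPM per kb of all exons, and *DUT* from 5 to 7. *TYMS* went from rank 6 to 4, *DCTPP1* from 7 to 5 and *DCK* from 8 to 6. This does not touch the differences between groups.

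The other genes of nucleotide metabolism were followed in 7 lists with 72 genes, of which 71 were tested, 16 were lower and 6 higher at an adjusted p under 0.05. This is 31.0% called, against 20.4% of all genes tested, which include many genes at low levels. The share among genes at levels like those of the lists was not computed. The share was 53.8% for de novo purine synthesis, 40.0% each for de novo pyrimidine synthesis and the reductase partners (5 genes each) and 35.3% for kinases and salvage. It was near or below that of all genes for the thymidylate and folate cycle (22.2%), transport (14.3%) and breakdown and sanitation (13.3%). Over all 71 tested genes of the 7 lists, the median log2 fold change was -0.01. De novo purine synthesis had the most lower genes, with 6 of 13 lower, 1 higher and a median log2 fold change of -0.16. *PPAT*, the first committed enzyme, had a log2 fold change of -0.41, and *GART*, which joins several of the later steps, of -0.39. *ATIC*, which closes the ring, had -0.24. *IMPDH1*, on the branch to GTP, was higher at 0.26, a call lost without IGF2BP3 KD replicate 3.

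De novo pyrimidine synthesis had 2 of 5 genes lower and 0 higher, at an edgeR adjusted p under 0.05. *CTPS1*, which makes CTP from UTP, went from 55.0 ± 1.85 to 35.2 ± 2.44 CPM (SD, n = 3), a log2 fold change of -0.65 (edgeR adjusted p = 2.89e-05) that exceeded that of *RRM2*. *CAD*, the enzyme of the first steps, had -0.16 (edgeR adjusted p = 0.0266), a call lost without control replicate 2 or 3 or IGF2BP3 KD replicate 3. Of the reductase partners, *TXNRD1*, which keeps thioredoxin reduced, fell by 0.42 on the log2 scale, together with *RRM2B*. *CCNF*, the cyclin that marks RRM2 for degradation, had a log2 fold change of -0.05 and was not called (edgeR adjusted p = 0.456).

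In the thymidylate and folate cycle, 2 of 9 genes were lower and 0 higher by the edgeR test. *MTHFD2* and *MTHFD1*, enzymes that pass on folate-bound carbon, had log2 fold changes of -0.31 and -0.23.

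The kinases and salvage enzymes moved both ways, with 2 of 17 lower and 4 higher and a median log2 fold change of 0.11. *GUK1*, the guanylate kinase, had the largest change of all 71 tested genes that were called, from 104 ± 6.44 to 56.8 ± 3.36 CPM (SD, n = 3), a log2 fold change of -0.87 (edgeR adjusted p = 1.88e-06). *NME4*, *HPRT1* and *CMPK1*, which act on nucleoside diphosphates, purine bases and pyrimidine monophosphates, were higher by 0.30, 0.26 and 0.22 on the log2 scale. With 1 library left out at a time, *NME4* was called in 1, *HPRT1* in 2 and *CMPK1* in 6 of 6 fits. Of the 15 genes of breakdown and sanitation, 1 was lower and 1 was higher. *DNPH1*, which splits modified deoxynucleoside monophosphates, was higher by 0.27 on the log2 scale. Among 7 tested nucleoside and nucleotide transporters, 1 was lower, *SLC25A36* at -0.20, a call lost without IGF2BP3 KD replicate 1 or 3, and 0 were higher.

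**Figure D4:**
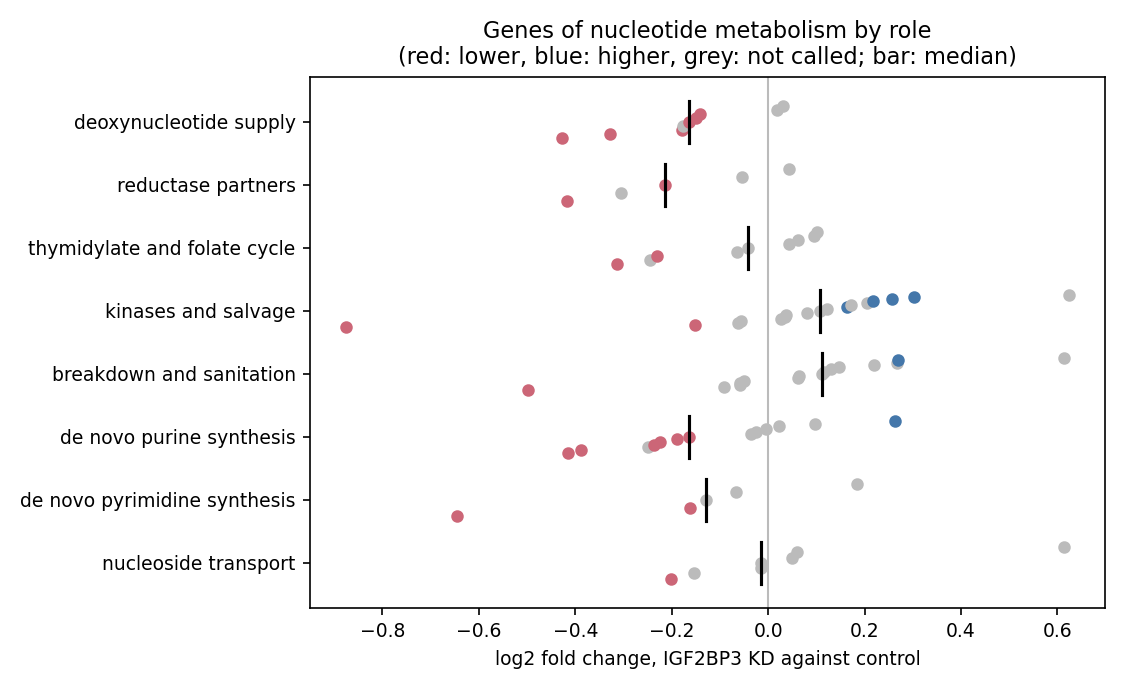
Log2 fold change in IGF2BP3 KD against control cells of each tested gene of nucleotide metabolism, 1 row per role, with lower genes in red, higher genes in blue, genes not called in grey and the median as a black bar. The medians are -0.16 for the 9 deoxynucleotide supply genes and for de novo purine synthesis, and 0.11 for kinases and salvage.

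The genes whose log2 CPM followed *RRM2* most closely over the 6 libraries were *PGD*, *SGPP2*, *NADK2*, *PRPF3* and *GALC*, with Pearson's r from 0.9986 to 0.9994. Their log2 fold changes ran from -0.77 to -0.17, so genes with larger and with smaller falls shared its profile. For *SAMHD1* they were *SRP14-AS1*, *RP11-521I2.3*, *METTL21A*, *ANKRD17* and *UTP14A*, with r from 0.987 to 0.9974, of which *SRP14-AS1* and *METTL21A* were called lower. With 6 libraries in 2 groups and 19778 genes to choose from, these values are given as a description.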

How the data were processed

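RNA-seq libraries of OE-19 cells, 3 control and 3 IGF2BP3 KD, were made with a directional kit and sequenced with paired reads of 150 bases. Per the labels and the study's methods, the authors used fastp, aligned reads to hg38 with HISAT2 and ran featureCounts per gene. The deposited file holds raw counts. Tool versions, the annotation release and the strand setting are not given in the sources used here. Libraries were grouped by their titles. Because 44 identifiers occur repeatedly, the first entry of each was kept and the 132 repeated entries were left out.

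The main test was edgeR's quasi-likelihood test (4.0.16, R 4.3.3) with TMM factors and no block over the 19778 genes that filterByExpr kept. The settings of this filter were a minimum count of 10, not required of every library, and a minimum total count of 15. The Benjamini-Hochberg threshold was 0.05. The study names DESeq2, used here (1.42.0) as an alternative. A standard error is the absolute log2 fold change divided by the square root of F. Pairs of libraries were compared by chi-square, which per degree of freedom was 9.86 to 17.6 within and 46.3 to 58.2 between groups, so no library repeats another. A simulation of this comparison covered 19182 tested genes. In it, 60% of 100 genes changed by 0.5 and 85% of 100 changed by 1 on the log2 scale were recovered. The 23 false calls were a larger share of the calls than the threshold of 0.05. Both simulated sizes exceed the change of every member, so these rates of recovery do not apply to the members.

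Ratios used counts plus 0.5 per kb of MANE transcript (GENCODE v44) and two-sided exact permutation tests. Promoters are from RefSeq on GRCh38.p14. Named genes are the members, *IGF2BP3*, genes that overlap members, *RRM2B*, *CCNF*, up to 4 called genes with the largest change per list, and the 5 most correlated genes for *RRM2* and *SAMHD1*. *CD68*, *COL1A1* and the other markers come from fixed lists. Some genes that this rule names are not reported here. The members and lists were chosen with earlier results of these data known. The alternatives were RLE scaling, DESeq2, no filter, a minimum of 10 counts in each library, the replicate block, GC trends removed by offsets (lowess span 0.3), both together, each library left out, and a threshold of 0.01.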

Additional observations from a re-analysis of the deposited data

How the results depend on the processing

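Over 33 results and 338 alternative values, 291 kept their direction and side of the threshold, or stayed close to the reported count or value. Some of these could not differ, since the threshold of 0.01 leaves each log2 fold change as it was. A count could also move and be taken as close, such as 6 lower members becoming 4 without IGF2BP3 KD replicate 1. The tally is therefore only a description. Without 1 library at a time, the log2 fold change lay between -0.45 and -0.40 for *RRM2*, -0.20 and -0.16 for *RRM1*, -0.38 and -0.27 for *DCTPP1*, -0.21 and -0.14 for *TK1*, -0.19 and -0.11 for *DUT*, -0.16 and -0.13 for *DTYMK*, -0.21 and -0.16 for *SAMHD1*, -0.044 and 0.055 for *DCK*, and -0.011 and 0.075 for *TYMS*. These fits have fewer samples, and other causes of lost calls were not tested. Under the same omissions, 3 to 5 members were lower. The lower genes were 1 to 2 for the reductase partners, 1 to 2 for kinases and salvage, 1 to 2 for de novo pyrimidine synthesis and 0 to 1 for transport. The higher genes were 0 to 1 for the reductase partners, 2 to 3 for kinases and salvage, 1 to 2 for breakdown and sanitation, and 0 to 1 for de novo purine synthesis.

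At a threshold of 0.01, 3 members were lower, since *TK1* (-0.16), *DUT* (-0.15) and *DTYMK* (-0.14) had larger adjusted p-values, and 1314 genes in all were lower and 1098 higher. Same-numbered libraries did not deviate together, with correlations of -0.09 to -0.03 over 14289 genes, so the numbers were not taken as pairs. With the replicate block, the adjusted p of *DTYMK* was 0.0597 at an unchanged log2 fold change of -0.14, 5 members were lower, and the count of all lower genes was 2026. With the block and the GC trend removed, 6 members were lower. With the GC trend removed and no block, the log2 fold changes of *TK1* (-0.22), *DTYMK* (-0.18) and *DCTPP1* (-0.35) were larger falls than in the main test. Those of *RRM2* (-0.42), *RRM1* (-0.17), *DUT* (-0.14) and *SAMHD1* (-0.16) were smaller falls. With the length of all annotated exons, chosen after seeing the data, the log2 ratio of the levels of *RRM2* to *RRM1* turned from 0.32 to -0.74 in control and from 0.07 to -0.99 in IGF2BP3 KD cells.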
